A study of Mus musculus with 446 samples.

Results

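The same mouse can be followed across tissues by the number that its libraries carry, and skeletal muscle was set beside abdominal adipose tissue of the same number here. Pairs from 61 control and 62 high-fat mice were kept (246 of the series' 446 libraries), those whose muscle library detected at least 8000 genes at a TPM of 1 or more and whose adipose table summed to at least 50000 TPM, without mouse 80. TPM counts the transcripts of a gene in every 1000000 of the library, a level per unit of transcript length. The other 25 pairs were left out (12 control and 13 high-fat), muscle falling below its minimum in 6 pairs and adipose tissue in 18. All mice were male Diversity Outbred mice, a stock bred from several inbred founder strains so that every animal carries its own mixture of their genomes. They were housed individually from 6 weeks of age, and after randomisation they either stayed on the control diet with 10 kcal % fat or received a high-fat diet with 60 kcal % fat for 14 weeks. Liver, muscle and adipose tissue were taken at necropsy, and 100 ng of total RNA made each stranded MiSeq library (RQN, an RNA quality number, of at least 8 in muscle and liver and 7 in adipose tissue).

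A transcript can stand high or low in several tissues of one animal because an inherited variant acts in each of them, or because a signal such as feeding, a hormone, the hour or handling reaches them together. Skeletal muscle and adipose tissue both take up glucose under insulin and draw on fatty acids in fasting. A gene whose level differs between mice for reasons private to 1 tissue need show no relation between the tissues. For each gene the mice of 1 diet were ranked by their muscle level and by their adipose level, and Spearman's rho measured how far both orders matched. The adipose numbers were then shuffled among mice of the same diet 100000 times, which gives a smallest possible p of 1e-05, and p-values were adjusted over all genes by Benjamini-Hochberg with a threshold of 0.05. A gene past it is called below. Levels are TPM divided by a scale factor of the library (scaled TPM). Tested were the 1363 genes with a median scaled TPM of at least 5 in both tissues, of 2728 genes in the adipose table and of 1836 that reached that median in adipose tissue. The adipose table used here holds only part of the genes, so genes outside it were not analysed here. In bulk tissue, fewer cells of a type and less RNA per cell cannot be told apart.

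The tissue markers went with the labels. Muscle creatine kinase (Ckm) was between 8020.0 and 50007 scaled TPM in muscle, and the fast-fibre actinin Actn3 had a median of 1.29 and a highest value of 44.5 in adipose tissue. Lipoprotein lipase (Lpl) was between 1349 and 8708 and the adipokine Retn between 98.7 and 3491 in adipose tissue. Muscle libraries carried fat cell transcripts to very different degrees, with Adipoq from 2.26 to 563 around a median of 62.1. The summed adipocyte markers of muscle (9 of 9 markers) and of adipose tissue (4 of 9) had a rho of 0.12 in control and 0.0036 in high-fat mice (permutation p = 0.368 and 0.978, adjusted p = 0.978 over 8 relations for both). The muscle sum includes the glucose transporter Slc2a4 and Lpl, never below 78.3 and 61.6 scaled TPM there, while Adipoq fell to 2.26. The adipose sum had a median of 5045, beside 3837 for Lpl. These unweighted sums therefore do not measure fat cells alone. Scale factors spanned 0.254 to 2.19 in muscle and 0.391 to 1.35 in adipose tissue and were not related between the tissues (rho 0.11 and 0.063, Pearson's r 0.045 and -0.018, permutation p for rho = 0.413 and 0.622). Muscle genes detected and the adipose table sum had a rho of 0.19 and -0.029 (permutation p = 0.138 and 0.825). In control mice 45 and 65 the muscle library resembled another mouse's liver more than its own, over genes outside the adipose table that were related between liver and muscle. This could be checked only in the 51 control and 53 high-fat mice whose liver library detected at least 8000 genes. Mouse 45's own muscle was also only the 44th best match of 61 for its adipose tissue, while mouse 65's own muscle was the best. Counts without these 2 mice stand beside the counts below.

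Muscle and adipose levels of the same mouse went together more often than shuffled pairings did, most of all for a small set of genes. Rpl19 and Rps25, 2 ribosomal protein genes, Serinc3, a serine incorporator family membrane protein, Abhd1, an alpha/beta hydrolase, Tnip1, a restrainer of NF-kB signalling, and Dnajb1, a co-chaperone induced by heat shock, headed the list with a rho between 0.57 and 0.77 over both diets. In control mice 38 of 1363 genes were called (2.79%) and in high-fat mice 64 (4.70%), and every one of these had a positive rho. Over both diets together 10.1% of the 1363 genes were called, 9.98% with a positive rho and 2 genes (0.147%) with a negative one, and 27 genes were called in each diet separately (1.98%). A rho of at least 0.5 was reached by 10 genes and of at least 0.4 by 35, so most calls were of modest size. The last gene called, the mitochondrial protease Clpp, had a rho of 0.25, and the first gene missed, the translation factor subunit Eif2b2, had a rho of 0.25. Without mice 45 and 65 the counts were 27 in control mice, 59 in high-fat mice, 19 in each diet and 130 over both. With TPM as deposited, without the scale factors, only 15, 7, 3 and 45 genes were called.

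The whole distribution was shifted a little to the positive side. The median rho over all 1363 genes was 0.073 in the 61 control mice and 0.095 in the 62 high-fat mice, each at the smallest p of the shuffles (1e-05), and 947 and 988 genes had a positive rho. As deposited TPM the medians were 0.11 (permutation p = 0.0553) and 0.039 (p = 0.404). Genes called in one diet were then read in the mice of the other, which are different animals. Of the 38 genes called in control mice, 35 had a positive rho in high-fat mice and 32 an unadjusted p under 0.05 there. Over all 1363 genes, 988 had a positive rho and 248 an unadjusted p under 0.05 in high-fat mice. Of the 64 called in high-fat mice, 59 were positive in control mice and 43 had an unadjusted p under 0.05. Over all 1363 genes these counts were 947 and 190 in control mice. The genes called in the other diet also told the mice apart: with 64 such genes, the adipose tissue of 30 of 61 control mice resembled its own muscle more than any other control mouse's muscle, and with 38 such genes this held for 36 of 62 high-fat mice, where chance expects 1 (1e-05 for both, the smallest p of the shuffles). The median correlation with the own muscle was 0.34 in control and 0.41 in high-fat mice, against -0.00779 and -0.00530 with another mouse's muscle.

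**Figure D1:**
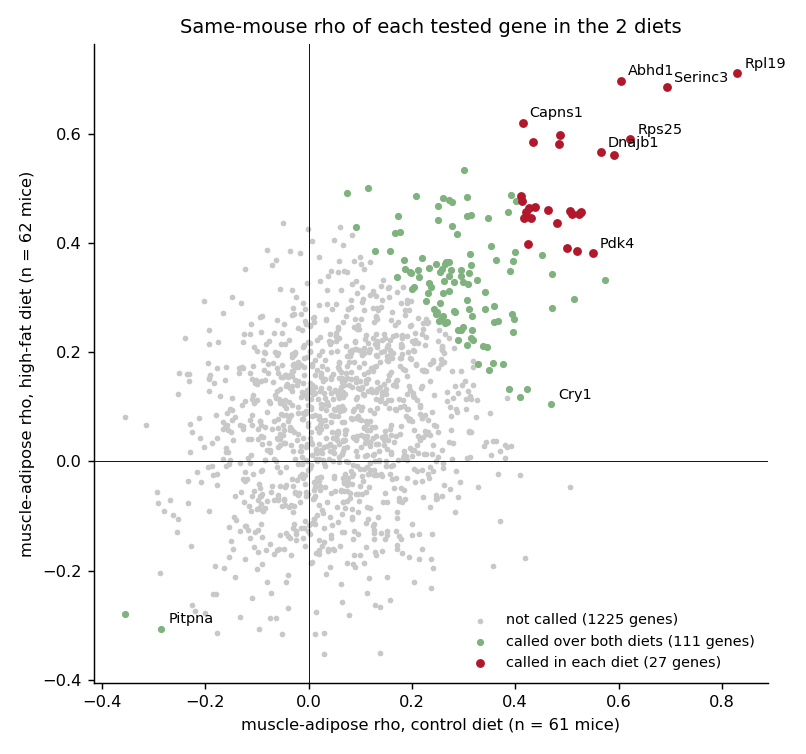
Each point is 1 of the 1363 tested genes, with its muscle-adipose Spearman rho in the 61 control mice on the x axis and in the 62 high-fat mice on the y axis. The 27 genes called in each diet (red) lie in the upper right, led by Rpl19, and others were called over both diets together (green). The 1225 genes not called over both diets (grey) lie mostly around 0, and some of them were called in 1 diet alone.

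Rpl19, a protein of the large ribosomal subunit, had the highest rho of all genes tested. Its lowest, median and highest level was 32.6, 171 and 517 in control and 30.8, 154 and 572 in high-fat mice. In adipose tissue the same 3 values were 54.2, 346 and 1459.5 in control and 61, 319.8 and 984 in high-fat mice, a 26.9-fold range. The diets overlapped in both tissues, and the high-fat mouse highest in muscle was also the highest in adipose tissue. The rho was 0.83 in control and 0.71 in high-fat mice (adjusted p = 0.00151 in each), and of the 30 control mice above the median in muscle 24 were above it in adipose tissue, against 6 of 31 of the others. Over both diets the rho was 0.77, Pearson's r on log2 values was 0.84 (each with a permutation p of 1e-05), and without the 2 mice farthest from the median in each diet the rho was 0.76. This value is uncertain as a measure of the gene, because the muscle table also lists a near copy, the processed pseudogene Rpl19-ps11.

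The level of Rpl19 and that of its copy were traded against each other. In muscle Rpl19-ps11 had a median of 223 scaled TPM against 166 for Rpl19, and within diets the pair had a rho of -0.85, the lowest of Rpl19 with any of 12766 muscle genes. Rpl19 made up 8.07% to 100.00% of the sum of both, and these shares fell into 3 separate ranges. In 49 mice the share was 8.07% to 29.2%, in 36 mice 37.5% to 49.1% and in 38 mice 92.8% to 100.00%. Adipose Rpl19 fell into 3 ranges as well, 54.2 to 175 in 50 mice, 284 to 493 in 35 and 601 to 1459.5 scaled TPM in 38, and all but 7 mice were in the same range, low, middle or high, in both tissues. Within the 3 ranges of the muscle share the rho of Rpl19 between muscle and adipose tissue was -0.25, -0.064 and 0.053, so the relation lay between the ranges and not within them. The ranges were drawn at the widest gaps after the values had been seen, and these values carry no test.

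The share of the gene in muscle was set beside the sum of gene and copy. The sum of Rpl19 and Rpl19-ps11 in muscle had a rho of -0.24 with adipose Rpl19 (permutation p = 0.00851), while the share had a rho of 0.75. The adipose level of the copy was not analysed here, but liver and muscle hold both. Between them, in 51 control and 53 high-fat mice, Rpl19 alone had a rho of 0.69, the sum -0.063 and the share 0.66. Rps25, of the small ribosomal subunit, also has a copy, Rps25-ps1. Its rho between muscle and adipose tissue was 0.61, that of the sum with adipose Rps25 was -0.45 (permutation p = 1e-05) and that of the share 0.72. Between liver and muscle its sum had a positive rho, 0.33, beside 0.56 for the gene and 0.76 for the share. For Rpl15, beside Rpl15-ps3, the gene had a rho of 0.32, the sum -0.29 (permutation p = 0.00125) and the share 0.48, while between liver and muscle these were 0.43, 0.31 and 0.51. Rpl10, whose copy Rpl10-ps3 was above it in muscle (medians 359 and 159), had a rho of -0.066, and its share had a rho of -0.058. For Rpl19, Rps25 and Rpl15 the level of the gene alone cannot be told apart from the division of reads between near-identical sequences.

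**Figure D2:**
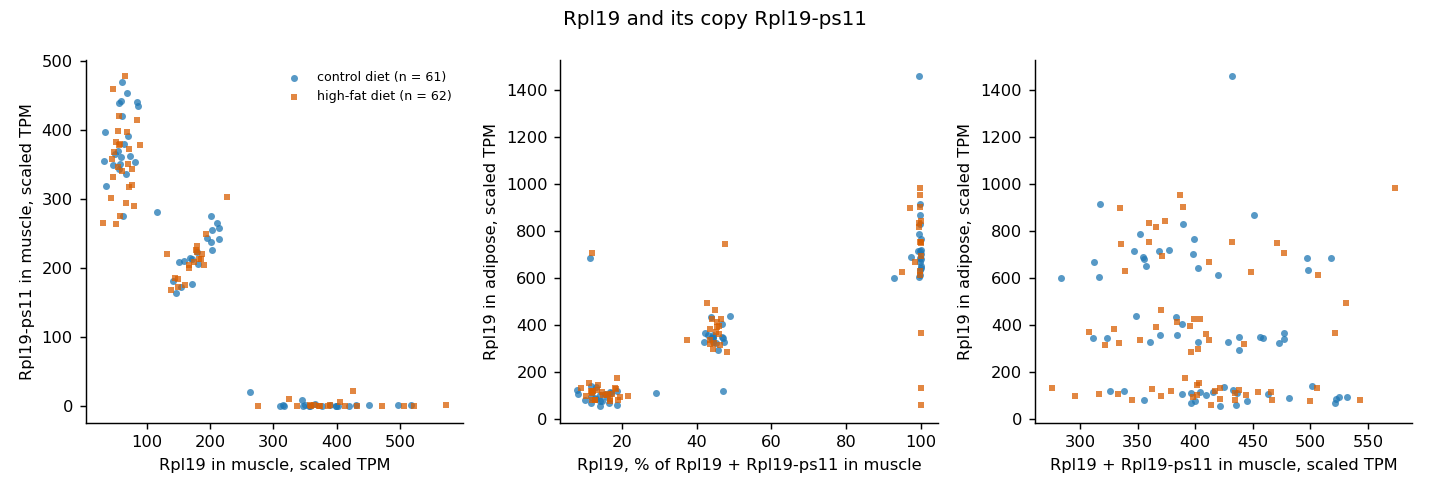
Rpl19 and Rpl19-ps11 in each mouse (blue circles, 61 control mice; orange squares, 62 high-fat mice), in scaled TPM: the copy against the gene in muscle (left), adipose Rpl19 against the gene's percent of the sum in muscle (centre) and adipose Rpl19 against the sum in muscle (right). The centre panel holds 3 clumps, at shares up to 29.2%, of 37.5% to 49.1% and above 92.8%, and the right panel shows no such steps along its x axis.

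Among the other ribosomal protein genes, Rplp1 and Rps9 were called with a rho of 0.32 and 0.28 (adjusted p = 0.0076 and 0.0266). In all 5 of 13 tested ribosomal protein genes were called, with a median of 0.18 beside 0.078 over all genes tested, where 9.98% were called positive. With TPM as deposited Rps9, Rplp1 and Rpl15 lost their call (rho 0.050, 0.22 and 0.27), and Rps9 lost it under the stricter library filter as well. Apart from Rpl19 and Rps25, the genes called in each diet had no processed pseudogene as their lowest muscle partner, and their lowest rho with any muscle gene lay between -0.59 (Hspa8) and -0.30 (Abhd1). Rpl15 and Rpl15-ps3 had a rho of only -0.24 within muscle, so a copy like that one could be missed by this reading.

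For Serinc3 and Abhd1 the 12 mice lowest in muscle mostly stood low in adipose tissue too. They were set apart at the widest gap in muscle, 0.29 (log2) for Serinc3 and 0.23 for Abhd1. The widest gap in adipose tissue was 0.094 for Serinc3 and 0.44 for Abhd1. No tested gene had an empty gap of 1 or more (log2), with at least 6 mice on each side, in both tissues. Serinc3 had a lowest, median and highest level of 21, 64.8 and 131.3 in control and 17.4, 65.8 and 137.8 in high-fat mice in muscle. Its adipose levels were 114.8, 212 and 407 in control and 91.3, 209 and 419.8 in high-fat mice. The diets overlapped, and the lowest muscle mouse of each diet was among the 10 lowest in adipose tissue. The rho was 0.69 in control and 0.69 in high-fat mice and 0.69 over both (adjusted p = 0.000389). The 12 mice up to 27.5 scaled TPM in muscle had 91.3 to 148.2 in adipose tissue, and only 2 of the mice from 33.8 upward in muscle fell below that highest value. Among those higher mice the rho was still 0.58.

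Abhd1 was 0.564, 5.09 and 21.7 in control and 0.585, 5.64 and 18.4 in high-fat mice in muscle (lowest, median and highest), a 38.5-fold range. Its adipose values were 3.54, 22.2 and 49.3 in control and 3.09, 24 and 81.8 in high-fat mice. The diets overlapped, and the high-fat mouse lowest in muscle was the lowest in adipose tissue. The rho was 0.60 in control and 0.70 in high-fat mice, and Pearson's r on log2 values over both diets was 0.73 (permutation p = 1e-05). The 12 mice lowest in muscle, up to 1.95 scaled TPM, had a median of 4.73 in adipose tissue against 24 in the other mice, where the rho was 0.55. These 12 mice reached up to 20.0 in adipose tissue, and 36 of the other mice lay below that value, so the groups overlapped there. Mouse 45, whose muscle resembled another mouse's liver, was the highest control mouse in muscle for both Serinc3 and Abhd1, with 21.7 for Abhd1. In adipose tissue it ranked only 52nd of 61 for Abhd1 and 30th of 61 for Serinc3.

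**Figure D3:**
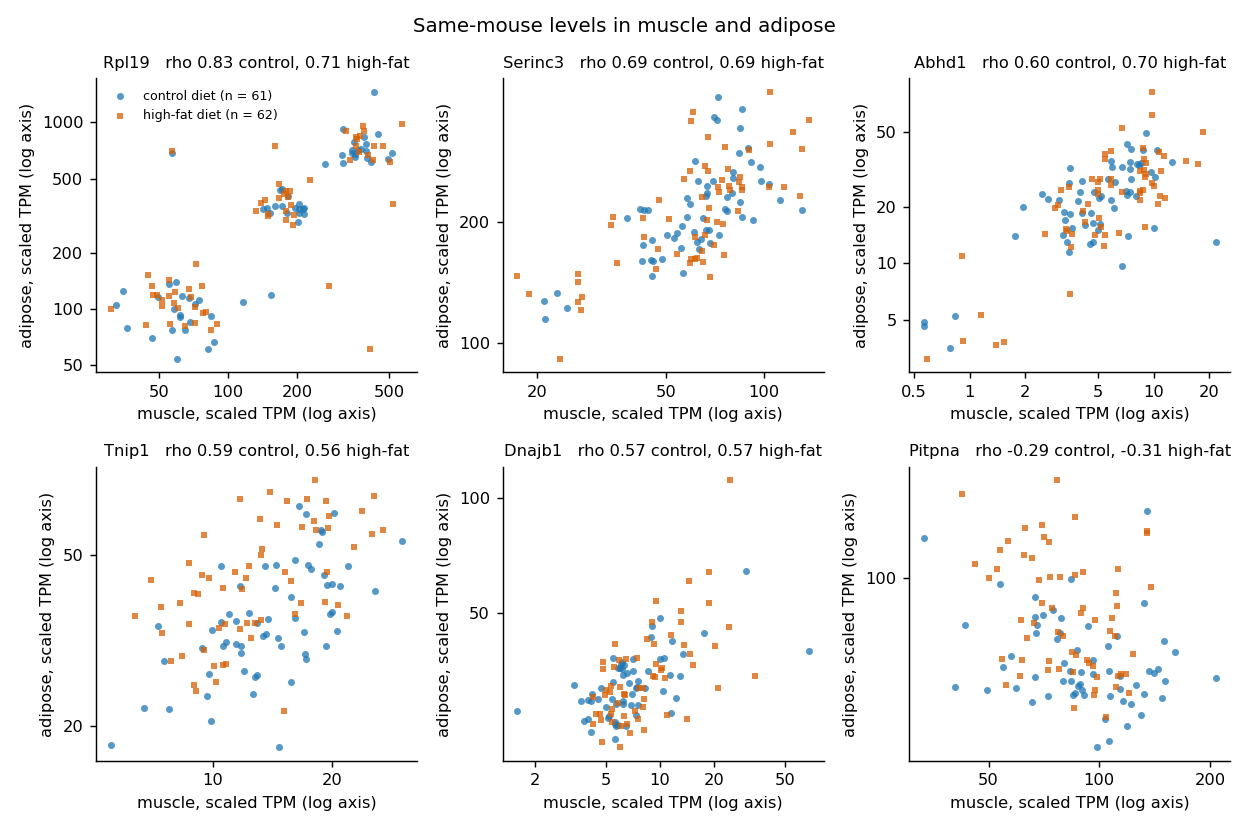
Scaled TPM in adipose tissue against scaled TPM in muscle of the same mouse, on log axes, for 6 genes (blue circles, 61 control mice; orange squares, 62 high-fat mice). Rpl19 lies in 3 clumps, and the mice lowest in muscle for Serinc3 and Abhd1 are mostly low in adipose tissue too. Tnip1 and Dnajb1 rise in both tissues together and Pitpna slopes downward.

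Tnip1, which binds a ubiquitin-editing protein and restrains NF-kB signalling, varied without a wide gap (at most 0.065 in muscle and 0.089 in adipose tissue, log2). Its lowest, median and highest level was 5.51, 14.3 and 30.1 in control and 6.36, 12.4 and 26.8 in high-fat mice in muscle and 17.8, 34.6 and 65.1 in control and 21.6, 42.7 and 74.7 in high-fat mice in adipose tissue. The diets overlapped in muscle and were shifted by a small step in adipose tissue. Of the mice above the muscle median of their diet, 21 of 30 control and 22 of 31 high-fat mice were above the adipose median too, against 9 of 31 and 9 of 31 of the rest. The rho was 0.58 over both diets (adjusted p = 0.000389). Diet moved its level in adipose tissue by 0.27 ± 0.08 (log2, high-fat minus control, ± SE, limma adjusted p = 0.0023) and its difference in muscle was not called (-0.10 ± 0.08, adjusted p = 0.755).

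Glrx2, a mitochondrial glutaredoxin, was 14.5, 31.7 and 54.2 in control and 13.1, 30 and 47.2 in high-fat mice in muscle and 23.9, 38.4 and 54.8 in control and 17.4, 29.4 and 50.4 in high-fat mice in adipose tissue (lowest, median and highest), with a rho of 0.53. Its adipose level fell by 0.29 ± 0.06 on the log2 scale with the high-fat diet (limma adjusted p = 6.22e-06), and the relation was present in each diet (0.48 in control and 0.58 in high-fat mice). Slc25a42, the mitochondrial coenzyme A carrier, spanned 5.20-fold in muscle and 11.3-fold in adipose tissue, with a rho of 0.51. Rtn4ip1, a mitochondrial oxidoreductase, had a rho of 0.45. The diets overlapped in both tissues for Glrx2 and Slc25a42. Cdk5rap3, an adaptor of the protein-modifying UFMylation system, was 5.10, 8.74 and 21.3 in control and 4.50, 8.40 and 23.1 in high-fat mice in muscle and 24.1, 35.4 and 54.3 in control and 23.3, 32.9 and 57.6 in high-fat mice in adipose tissue, and its rho was 0.54. Capns1, the regulatory subunit of calpain proteases, varied only 2.52-fold in muscle and 2.86-fold in adipose tissue and still had a rho of 0.52.

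Gtf3a, a transcription factor of ribosomal RNA genes read by RNA polymerase III, had a rho of 0.49, Smc6, a chromosome maintenance protein of DNA repair, 0.49, Hint3, a histidine triad nucleotide hydrolase, 0.48, and Rab1a, a small GTPase of transport from the endoplasmic reticulum to the Golgi, 0.48. Hint3 had the wider range of these, 4.41, 35.7 and 76.3 in control and 13.4, 32.3 and 63.1 in high-fat mice in muscle and 6.29, 33.2 and 59.7 in control and 14.3, 26.5 and 47.7 in high-fat mice in adipose tissue (lowest, median and highest). Rab1a was 24.1, 45.2 and 61.3 in control and 24.7, 48.2 and 65.8 in high-fat mice in muscle, a 2.73-fold range, and 68.5, 103.1 and 143.1 in control and 85.7, 117.4 and 162 in high-fat mice in adipose tissue. For each of the 14 genes with the highest rho, Pearson's r on log2 values had a permutation p of 1e-05 as well, and leaving out the 2 mice farthest from the muscle median in each diet left a rho between 0.48 and 0.76. With TPM as deposited 3 of the 14 lost their call, Gtf3a (0.25, adjusted p = 0.0977), Smc6 (0.27, 0.0639) and Rab1a (0.26, 0.087). The other genes called in each diet, listed after their values had been seen and with a rho between 0.41 and 0.46, were Pdk4, Hddc2, Hspa8, Fam114a2, Mtrex, the helicase of the nuclear RNA exosome, Rbsn, an endosomal Rab effector, Rtn4ip1, Ddr1, a collagen receptor kinase, P4ha1, a collagen prolyl hydroxylase subunit, Aspa, the enzyme that splits N-acetylaspartate, Txnrd1, Katna1, which severs microtubules, and Erlec1, a lectin of the endoplasmic reticulum. Of these Hddc2, Rtn4ip1 and Katna1 lost their call over both diets with TPM as deposited (adjusted p = 0.0893, 0.295 and 0.355).

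The levels of the 27 genes called in each diet were also read beside markers of other cell types. The adipocyte sum of muscle (9 of 9 markers) spanned 475 to 6695 scaled TPM, the macrophage sum 15.7 to 464 in muscle (6 of 6 markers) and 56.4 to 1043.5 in adipose tissue (3 of 6). That adipocyte sum includes Slc2a4 and Lpl, with muscle medians of 227 and 230, so it does not measure fat cells alone. In muscle the rho of a gene with the summed adipocyte markers ran from -0.411 (Glrx2) to 0.249 (Aspa), and with the summed macrophage markers from -0.386 (Rbsn) to 0.147 (Dnajb1). In adipose tissue the rho with macrophage markers ran from -0.502 (Hddc2) to 0.584 (P4ha1). The macrophage marker sums of both tissues had a rho of 0.046 and -0.0036 between them (permutation p = 0.722 and 0.978), and the part of these cells in the results was not tested.

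The heat shock list had 4 of its 5 tested members called. Heat shock genes are switched on together by the transcription factor HSF1 when proteins unfold, and their products refold or hold such proteins. Of 22 listed genes 5 were tested, and 4 of these were called, with a median rho of 0.30 beside 0.078 over all genes and a background of 9.98% called positive. Dnajb1, which delivers clients to the chaperone Hspa8 and its relatives, was 1.58, 6.24 and 68.6 in control and 4.20, 7.55 and 34.2 in high-fat mice in muscle (lowest, median and highest). Its adipose values were 23.3, 31.7 and 64.5 in control and 22.2, 32.1 and 111.1 in high-fat mice. The rho was 0.57 in control and 0.57 in high-fat mice (adjusted p = 0.00151 in each). The diets overlapped over nearly all of their range, and of the control mice above the muscle median 21 of 30 were above the adipose median, against 9 of 31 of the rest. The control mouse highest in muscle ranked 7th of 61 in adipose tissue and the highest high-fat mouse 27th of 62. Hspa8, the constitutive member of the family and an abundant transcript, was 321, 1237 and 2039 in control and 650.1, 1283 and 2240.3 in high-fat mice in muscle and 905, 1636 and 3358 in control and 882, 1729 and 3327 in high-fat mice in adipose tissue, with a rho of 0.46. Chordc1, an Hsp90 co-chaperone, and Hspb1, a small heat shock protein, had a rho of 0.30 and 0.28 (adjusted p = 0.0145 and 0.0264), and Hspa4, a nucleotide exchange factor, had 0.13 (adjusted p = 0.412). Chordc1 lost its call with TPM as deposited (adjusted p = 0.112) and Hspb1 under the stricter library filter (adjusted p = 0.0657).

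The windows around the start of 4 of these genes, 120 bases before to 30 bases after it, are shown because they belong to the list, 3 of them called between the tissues and Hspa4 not. They were taken from RefSeq (GRCm38.p6) and run 5′ to 3′ on the gene's strand. Capitals mark the heat shock element, searched on both strands as TTCNNGAANNTTC or GAANNTTCNNGAA, and its 2-unit part, GAANNTTC or TTCNNGAA, which overlaps it.
Chordc1: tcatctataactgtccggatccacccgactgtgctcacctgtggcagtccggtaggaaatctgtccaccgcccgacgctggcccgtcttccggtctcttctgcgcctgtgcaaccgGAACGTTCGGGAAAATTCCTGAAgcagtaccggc
Hspb1: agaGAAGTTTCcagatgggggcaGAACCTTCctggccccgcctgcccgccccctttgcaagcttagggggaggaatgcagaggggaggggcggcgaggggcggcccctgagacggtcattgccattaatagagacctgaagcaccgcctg
Dnajb1: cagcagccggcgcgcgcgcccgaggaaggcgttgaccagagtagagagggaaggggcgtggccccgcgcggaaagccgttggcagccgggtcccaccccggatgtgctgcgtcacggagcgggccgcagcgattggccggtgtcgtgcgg
Hspa4: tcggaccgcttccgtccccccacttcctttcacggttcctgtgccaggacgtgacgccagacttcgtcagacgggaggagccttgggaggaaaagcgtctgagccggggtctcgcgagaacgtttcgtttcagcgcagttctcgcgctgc
Chordc1 (chr9:18292147-18292296 (+ strand)) held the full element, in 3 overlapping matches next to its start. Hspb1 (chr5:135887799-135887948 (+ strand)) held 2 matches of the shorter part. Dnajb1 (chr8:83608055-83608204 (+ strand), the first of 2 starts in the table) and Hspa4 (chr11:53300450-53300599 (- strand)) held neither in the windows searched, nor did the second Dnajb1 start, Ahsa2, P4ha1, Hsp90b1 and Nfe2l2, which says only that these letters are not there. The full element was in 0.603% and the shorter part in 15.1% of all 32851 RefSeq promoter windows of 300 bases. Hspa8 had no entry.

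Pairings of different genes were then read across the tissues. Across all genes called over both diets, 16 of 18906 pairings of 1 gene in muscle with another gene in adipose tissue were called (0.0846%). Of these 16, 8 lay among Dnajb1, Chordc1, Hspb1, Hsp90b1, an endoplasmic reticulum chaperone, Ahsa2, an activator of Hsp90, P4ha1 and Nfe2l2, the transcription factor of the antioxidant response. Muscle Dnajb1 had a rho of 0.49 with adipose Chordc1, muscle Ahsa2 0.44 with adipose P4ha1 and 0.42 with adipose Chordc1, muscle Nfe2l2 0.39 with adipose Dnajb1, and muscle Hspb1 0.38 with adipose Hsp90b1. Muscle Dynll1, a dynein light chain, was called with adipose Dnajb1 and Chordc1 (rho 0.37 and 0.37). With Hspa8 and Hspa4 added to these 7 genes, all 72 pairings of different genes had a positive rho, 0.058 to 0.49 with a median of 0.25. The median within muscle was 0.37 and within adipose tissue 0.47, while over all pairings of called genes between the tissues it was 0.00880. Of the 8 called pairs only Dnajb1 with Chordc1 lies within the heat shock list. The 9 genes were put together after their values, these pairs included, had been seen, so the values are a description of genes chosen for the pattern. Rpl19, Serinc3, Abhd1 and Tnip1 had no called partner in the other tissue.

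**Figure D4:**
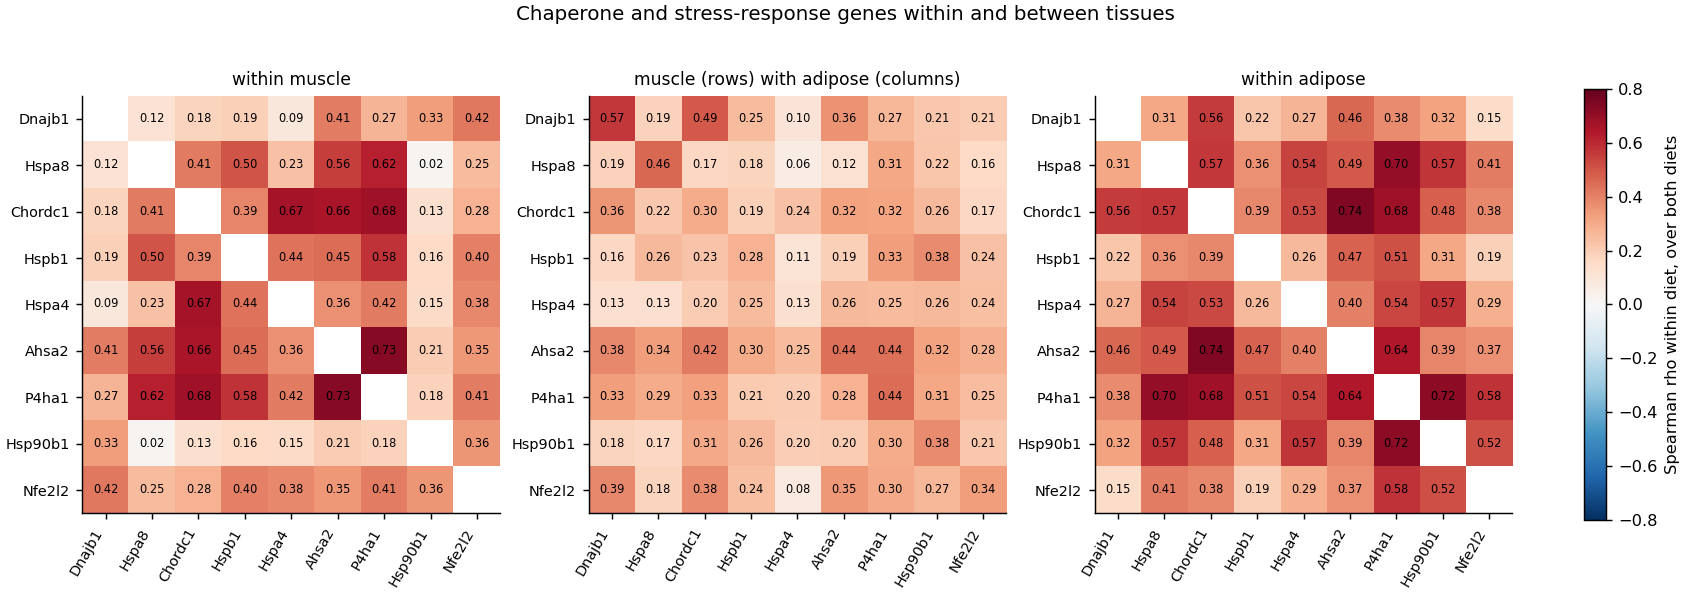
Spearman rho within diets, weighted over both diets, between 9 chaperone and stress-response genes within muscle (left), between muscle (rows) and adipose tissue (columns) of the same mouse (centre) and within adipose tissue (right). All 72 pairings off the diagonal of the centre panel are positive and Dnajb1 with itself (0.57) is the highest value there.

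Genes of fasting, hormone and redox responses were called singly and not as whole lists. Pdk4, the kinase that shuts off pyruvate oxidation in fasting, was 68.4, 205 and 747 in control and 107.8, 356 and 2051 in high-fat mice in muscle (lowest, median and highest). In adipose tissue it was 7.55, 34.4 and 253 in control and 20.3, 57.5 and 220.1 in high-fat mice. The control mouse highest in muscle was the highest in adipose tissue, the control mouse lowest in muscle ranked 6th from the top there, and the diets overlapped in both tissues. The rho was 0.55 in control and 0.38 in high-fat mice (adjusted p = 0.00151 and 0.0498). Pdk4 was also higher on the high-fat diet in both tissues, by 0.64 ± 0.14 in muscle and 0.57 ± 0.17 in adipose tissue (log2 ± SE, limma adjusted p = 0.00397 and 0.00428), and the rho, being taken within diets, does not include that difference. It was the 1 called gene of 5 tested in the glucocorticoid and fasting list and of 7 in the fatty acid oxidation list. Lpin1, a phosphatidate phosphatase of the first list, had a rho of 0.24 (adjusted p = 0.0628). Socs2, a feedback inhibitor of growth hormone signalling that was named after its values had been seen, was 2.03, 7.84 and 31.5 in control and 2.27, 6.92 and 34.7 in high-fat mice in muscle and 6.47, 13.9 and 27.5 in control and 8.54, 13.9 and 29.8 in high-fat mice in adipose tissue and had a rho of 0.42 (adjusted p = 0.000389).

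Among 10 tested antioxidant and glutathione genes 3 were called, with a list median of 0.17 beside 0.078 and 9.98% called positive over all genes. Txnrd1, thioredoxin reductase, was 10.3, 28.6 and 47.8 in control and 9.95, 27.1 and 54.2 in high-fat mice in muscle and 29, 40.2 and 72.8 in control and 30.2, 44.3 and 86.5 in high-fat mice in adipose tissue, with a rho of 0.44 (adjusted p = 0.000389). Nfe2l2, which activates Txnrd1, had 0.34 and Prdx2, a peroxiredoxin, 0.32. By Pearson's r on log2 values Nfe2l2 was at 0.25 and no longer called (adjusted p = 0.0513). Neither Nfe2l2 nor Prdx2 was called with TPM as deposited (adjusted p = 0.208 and 0.0639). Srebf1, the lipogenic transcription factor, was 1 of 7 fatty acid synthesis genes called (rho 0.32, adjusted p = 0.0102), and its adipose level fell by 0.42 ± 0.09 with the high-fat diet on the log2 scale (limma adjusted p = 0.000114). Cry1, a repressor of the circadian clock and the only core clock gene tested, had 0.47 in control and 0.10 in high-fat mice (0.29 over both, adjusted p = 0.0242), and the difference between diets was not called (unadjusted p = 0.0476, adjusted p = 0.996).

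Hsp90b1 was the 1 gene called over both diets of 7 tested for endoplasmic reticulum stress (rho 0.38). Tsc2, which restrains mTORC1, and Igfbp3, an IGF-binding protein, were the called 2 of 10 tested insulin and IGF genes (0.27 and 0.26, adjusted p = 0.0366 and 0.0415). Ndufs7 of complex I was the 1 called of 16 electron transport genes, at 0.25 (adjusted p = 0.0478). Without mice 45 and 65 the adjusted permutation p was 0.0581 for Tsc2, 0.0631 for Ndufs7 and 0.0631 for Clpp. Srebf1, Cry1, Hsp90b1, Igfbp3 and Ndufs7 were not called with TPM as deposited (adjusted p = 0.53, 0.37, 0.415, 0.632 and 0.759).

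Other lists held no gene called over both diets, the test that all list counts refer to. All 11 tested extracellular matrix genes had a positive rho (0.08 to 0.23, median 0.15), where 1027 of all 1363 genes had a positive rho over both diets. The nearest to a call were Col5a3, a fibrillar collagen chain, and Sparc, a collagen-binding matrix protein (adjusted p = 0.0792 and 0.0817). The 11 proteasome genes had a median of -0.025, from Psmb4 at -0.18 to Psmb1 at 0.16, both beta subunits of its core. The 5 endothelial genes lay between -0.093 (Vwf, von Willebrand factor) and 0.057 (Esam, an adhesion molecule), and the 7 adipocyte genes between -0.063 and 0.24, the last being Slc2a4, the insulin-responsive glucose transporter (adjusted p = 0.0671). The 2 macrophage genes, Cd163 and Cd68, had 0.15 and 0.13, and the 2 interferon response genes, Irf1 and Ifi35, 0.17 and 0.12. The 5 immediate early genes, which answer to handling within minutes, had at most 0.10 (Klf4, a zinc finger transcription factor). No muscle fibre, lymphocyte, neutrophil, erythrocyte, mesothelial, epididymal or brown fat marker reached the expression minimum in both tissues.

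Of the lists with only 1 to 3 tested members, the 3 glycolysis genes had a median of 0.24, with Hk2, hexokinase, at 0.24 (adjusted p = 0.0628). None of them was called over both diets. Calr and Canx, chaperones of antigen presentation, had 0.18 and 0.10. Calr was called in high-fat mice alone (rho 0.38, adjusted p = 0.0497) and had -0.016 in control mice. The imprinted genes Sgce and Grb10 had -0.079 and 0.059, the branched-chain amino acid genes Dld and Dbt 0.13 and 0.092, and the cell cycle genes Cdkn1b and Ccnd2 0.088 and -0.069. Pmp22, a myelin protein, had 0.15 and Insig2, a regulator of cholesterol synthesis, 0.037. These lists were read on few genes because the adipose table used here is partial.

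**Figure D5:**
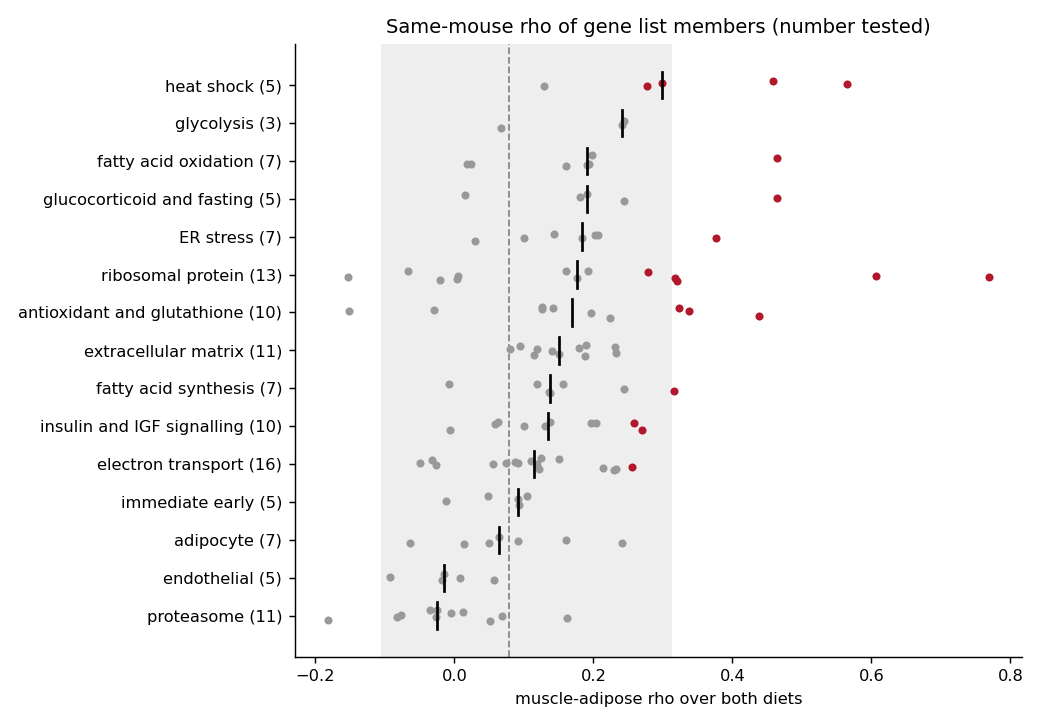
Muscle-adipose rho over both diets (x axis) of the tested members of each gene list with 3 or more of them (rows, number tested in brackets), with called genes in red, others in grey and the list median as a black bar. The dashed line is the median of all 1363 genes and the grey band their 5% to 95% range; heat shock genes lie to the right and proteasome and endothelial genes around 0.

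Among the called genes 2 ran in opposite directions, mice high in muscle being low in adipose tissue. Pitpna, a phosphatidylinositol transfer protein, was 33.3, 89.4 and 208 in control and 42.4, 84.7 and 138.5 in high-fat mice in muscle and 59.7, 74.8 and 122.7 in control and 65.4, 88 and 134.6 in high-fat mice in adipose tissue (lowest, median and highest). The lowest muscle mouse of each diet was the 2nd highest of its diet in adipose tissue, and the diets overlapped. The rho was -0.29 in control and -0.31 in high-fat mice (-0.30 over both, adjusted p = 0.0154). Of the control mice above the muscle median 11 of 30 were above the adipose median, against 19 of 31 of the rest. The gene named 9330159F19Rik had -0.32 over both diets (adjusted p = 0.0055). With TPM as deposited neither was called (adjusted p = 0.141 and 0.394).

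No gene's rho differed between the diets after adjustment, and 62 of 1363 had an unadjusted p under 0.05 (33 with a higher and 29 with a lower rho on the high-fat diet). The 4 smallest p-values in each direction are given as values. Mid1ip1, an activator of acetyl-CoA carboxylase, had 0.42 in control and -0.18 in high-fat mice (unadjusted p = 0.00141, adjusted p = 0.996). Stx7, an endosomal syntaxin, had 0.36 in control and -0.19 in high-fat mice, Snrpf, a spliceosomal Sm protein, 0.51 in control and -0.046 in high-fat mice, and Nom1, a nucleolar protein, 0.14 in control and -0.35 in high-fat mice. In the other direction, Fnbp4 had -0.049 in control and 0.44 in high-fat mice, Dlst, of the oxoglutarate dehydrogenase complex, -0.12 in control and 0.35 in high-fat mice, Nfat5, the factor of osmotic stress, -0.24 in control and 0.23 in high-fat mice, and Rxrg, a retinoid X receptor, -0.20 in control and 0.29 in high-fat mice (unadjusted p between 0.00412 and 0.00963). By their rho within a diet, Mid1ip1 and Snrpf were called in control mice alone (adjusted p = 0.0405 and 0.00636) and Fnbp4 in high-fat mice alone (adjusted p = 0.0143).

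Diet itself moved few muscle and many adipose genes. In adipose tissue limma called 397 of 1836 genes higher (21.6%) and 401 lower (21.8%) on the high-fat diet, and of the genes called with a positive rho 27 were higher (19.9%) and 25 lower (18.4%), beside 20.1% and 22.9% of all 1363 genes. In muscle 38 of 8201 genes were higher (0.463%) and 31 lower (0.378%), and of the genes called with a positive rho 2 were higher (1.47%) and none lower, beside 0.514% and 0.147% of all 1363 genes. These 2, named after their values had been seen, were Pdk4 and Ddr1, with Ddr1 higher by 0.25 ± 0.06 in muscle and 0.27 ± 0.11 in adipose tissue (log2 ± SE, limma adjusted p = 0.00834 and 0.037). The called genes were close to the others in abundance, with a median level of 17.7 scaled TPM in muscle and 37.8 in adipose tissue, beside 18.2 and 40 over all genes tested. Their spread between mice of 1 diet was wider, with a median SD of log2 values of 0.340 against 0.291 in muscle and 0.301 against 0.249 in adipose tissue, which was not tested.

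Liver was set beside both tissues in the mice whose liver library passed the same gene minimum (51 control and 53 high-fat mice), over the 1037 genes that also had a median of 5 in liver. The 3 comparisons share libraries, so their values are set side by side only. Positive calls over both diets numbered 89 between muscle and adipose tissue (8.58%), 74 between liver and muscle (7.14%) and 89 between liver and adipose tissue (8.58%). Dnajb1 had a rho of 0.58 between muscle and adipose tissue, 0.72 between liver and muscle and 0.64 between liver and adipose tissue. Abhd1 had 0.64, 0.74 and 0.73 in the same order, Serinc3 0.69, 0.62 and 0.72, and Txnrd1 0.44, 0.53 and 0.42. These genes were called in all 3.

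For other genes at least 1 of the liver values was not called or was negative. Gtf3a had a rho of 0.49 between muscle and adipose tissue, -0.15 between liver and muscle (adjusted p = 0.458) and -0.30 between liver and adipose tissue (adjusted p = 0.026), so the last was called with the opposite sign. Aspa had 0.43, -0.10 and -0.33, the last again called negative (adjusted p = 0.0155). Rtn4ip1 had 0.42, -0.024 and -0.12, with neither liver value called. Slc25a42 had 0.53, 0.31 and 0.25, and Hsp90b1 0.40, 0.55 and 0.19 (adjusted p = 0.0255 and 0.000358 for liver with muscle, 0.108 and 0.283 for liver with adipose tissue). Pdk4, Tnip1, Smc6 and Socs2 were below the expression minimum in liver. Whether a rho differs between tissue pairs was not tested.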

How the data were processed

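Muscle, adipose and liver RNA were analysed from the deposited gene tables, whose values are TPM, as column totals near 1000000 show in muscle and liver, although the table names speak of counts. Adapter trimming with Trim Galore 0.4.4, checks with FastQC and Bowtie 1.2.2 are given per the submitters' processing notes, while what quantified the reads, against which build, is not given in the sources used here. TPM keep no read depth, so depth is unknown and no counting interval is given. Of 148 same-numbered pairs 123 were kept. Gene names, gene types and positions came from the GENCODE annotation, and the promoter windows from RefSeq (GRCm38.p6).

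TPM were divided by a library scale factor, a mean log ratio to the median library after trimming (0.3 of ratios, 0.05 of levels), taken over protein-coding genes without the mitochondrial ones and Lars2. Spearman rho, 100000 shuffles within diet (two-sided) and Benjamini-Hochberg adjustment used Python 3.11.15 with numpy 2.4.6 and scipy 1.17.1. The value over both diets is the mean weighted by the number of mice less 1, and the difference between diets was tested by exchanging within-diet rank products. Of 1363 genes 138 were called over both diets, 136 of them positive. Diet effects came from limma 3.58.1 (trend, robust) on log2(scaled TPM + 1), a scale that understates changes of low genes. The scripts were tested on simulated data. Mouse numbers pair the tissues because the labels give the same number to tissues of the same diet, and the match of 30 of 61 and 36 of 62 mice to their own number is the check of that pairing; no label gives a batch.

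Named were the 14 genes of highest rho called in each diet (no predicted names), the 4 lowest among called genes, the 2 of largest absolute rho in each list and the 4 smallest p of the diet difference in each direction; others are said to be chosen after their values. Members and lists were chosen with earlier results of these data known, so no list is tested, and a few named genes are not reported here. Alternatives were TPM as deposited, expression minima of 1, 20 and none, Pearson's r with pseudocounts of 1 and 0.1, adjustment for 4 library measures, all pairs, a stricter filter (10000 genes, 100000 TPM), leaving out mice 45 and 65 or the 2 farthest mice, pooled diets and unpaired mice. The sum of a gene and its copy was chosen after seeing the data.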

Additional observations from a re-analysis of the deposited data

How the results depend on the processing

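The calls depended most on the scaling. With TPM as deposited 45 genes were called over both diets (39 of those called with scaled TPM), 15 in control mice, 7 in high-fat mice and 3 in each diet. The own-number match then fell to 10 and 19 mice, and the median rho was 0.11 (permutation p = 0.0553) and 0.039 (p = 0.404). In the same setting 12 muscle genes differed by diet, the Smc6 diet effect in adipose tissue turned to 0.010 (log2, limma adjusted p = 0.915), 12 genes were called between liver and muscle with medians of 0.035 and 0.037, and 8 between liver and adipose tissue with medians of -0.043 and -0.0072. Of 90 genes followed by name, 24 lost their call there, and many of the rest had no call over both diets to lose. In each of the other settings at most 4 of the followed genes lost it. That limit does not hold for all genes called over both diets with scaled TPM. More than 4 of these lost their call with Pearson's r, adjustment for library measures, all pairs and the stricter filter, though fewer than with TPM as deposited. The expression minimum moved counts through the number of genes tested, to 59 in control mice at a median of 1, to 62, 21, 33 and 13 (both, control, high-fat, each) with 22 high-fat matches at a median of 20, and with no minimum to 265, 81, 1.3e2 (5.17% of 2420 genes) and 52. Adjusted for library measures, 69 genes were called in control mice. Without the replicate block, that is with muscle set beside another mouse of the diet, the medians of the unpaired values were -0.00213 and -0.00144. Replacing the muscle gene by its sum with the copy reversed Rpl19 (-0.24), Rps25 (-0.45) and Rpl15 (-0.29). Except as said of the construction of a setting, the cause was not tested. Depth is unknown, so what counting error adds to genes near the minimum cannot be read from these tables.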

Other observations

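In 7 mice the Rpl19 range of muscle differed from that of adipose tissue. The liver share of Rpl19 in the sum with its copy was measured in 6 of them. In control mouse 45 the muscle share was 47.1%, the adipose level 118.3 scaled TPM and the liver share 15.9%, so muscle lay in the middle range and both other tissues in the low one. Control mouse 49 had a muscle share of 11.5%, an adipose level of 686 and a liver share of 100%, and high-fat mice 91 and 93 had muscle shares near 100% beside adipose levels of 133.4 and 61 and liver shares of 21.8% and 12.6%. The pair Muscle-126 and Fat-126 had 47.6% and 746 scaled TPM with a liver share of 100%, and Muscle-144 and Fat-144 had 100% and 364 with 100% in liver. Muscle-100 and Fat-100, with no liver value, had 11.9% and 706. These mice were picked for a difference between muscle and adipose tissue. Over all mice with a liver value, 12 had 1 tissue apart from the other two, liver in 6, muscle in 5 and adipose tissue in 1. Over the genes called in the other diet, adipose tissue matched its own muscle best in 2 of the 7 mice (Fat-100 and Fat-126).

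Other cross-gene pairs included Tbcb, a tubulin-folding cofactor, in muscle with Capns1 in adipose tissue (rho 0.44) and Nkiras2, a small GTPase that restrains NF-kB, with the phosphodiesterase Cnp (0.39). Pdhx, of the pyruvate dehydrogenase complex, went with Rtn4ip1 (0.37). The 2 negative pairs were Use1, a SNARE protein, with Slc25a42 (-0.38) and Rps9 with the chloride exchanger Clcn4 (-0.42). These genes were named after their values had been seen. Genes called over both diets had such neighbours about as often as other genes did, and no test was made. Of them 39.9% had another such gene within 1 Mb, against 38.5% of the 1225 genes not called over both diets.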
